A study of Mus musculus with 48 samples.

Results

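The muscleblind genes Mbnl1, Mbnl2 and Mbnl3 were taken by gene symbol from the deposited count table, which gave 3 of its 20171 genes, each with 1 row. Muscleblind proteins are zinc finger proteins that bind pre-mRNA and mRNA and set the choice of alternative exons. They are best known for promoting the exon choices of differentiated tissue, for keeping their own and each other's levels in check, and for being trapped by expanded CUG repeats in myotonic dystrophy. In embryonic stem cells their low activity is part of the pluripotent splicing programme, and Trim71, an RNA-binding protein of stem cells, is known to bind and repress Mbnl1 mRNA.

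Mouse embryonic stem cells were studied by sequencing of immunoprecipitated RNA (RIP-seq) to ask which RNAs come down with Tnrc6a, a GW182 protein that links Argonaute and other RNA-binding proteins to the silencing enzymes. Total RNA was sequenced from cleared lysates (inputs) and from the material that HA magnetic beads took from them (IPs), in experiment 3 and experiment 4. All cells were of the 129S6/SvEvTac background and carried the reporter GFP_5xT71BS, with binding sites for Trim71, and a stably transfected FLAG-Cas9::T2A::Blasticidin construct. The genotype labels also hold the name yGlob. Inputs and IPs of 4 genotypes in each experiment made 16 groups of 3 libraries, 48 in all.

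The 4 genotypes were untagged cells, cells with an HA-AVI tag on Tnrc6a (HA-Tnrc6a), tagged cells labelled Ago2-/-, and tagged cells labelled Upf1-/-. Untagged cells had the reporter and Cas9 with no tag or knockout label. Ago2 is an Argonaute protein of the microRNA pathway, and Upf1 is the helicase of nonsense-mediated mRNA decay. How many clones stand behind a genotype is not stated in the labels. Libraries held 15383953 to 19595405 counts in the inputs and 11471544 to 18344233 in the IPs of experiment 3, and 26458831 to 37179105 and 25724085 to 73845953 in those of experiment 4. Tnrc6a mRNA was enriched in HA-Tnrc6a IPs by 7.77 ± 0.18 on the log2 scale (SE). In the inputs, Ago2 mRNA fell by 1.21 on the log2 scale in Ago2 knockout cells, while Upf1 mRNA was not lower but 0.58 higher in those with the label Upf1-/-, which are therefore called labelled Upf1 knockout throughout. The 8 pluripotency markers examined (Pou5f1, Nanog, Sox2, Zfp42, Esrrb, Klf4, Dppa5a and Tdgf1) were all in the table and summed to 6400 to 8089 CPM (counts scaled to a common library size) in the 24 inputs. In inputs labelled Upf1 knockout 8 of 8 differed from HA-Tnrc6a (edgeR adjusted p under 0.05, 3 higher, 5 lower), against 58.6% of all genes. In Ago2 knockout inputs 6 of 8 did (5 higher, 1 lower), against 30.9% of all genes.

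In the RefSeq annotation of GRCm38.p6, Mbnl1 (ENSMUSG00000027763) spans chr3:60472559-60629750, Mbnl2 (ENSMUSG00000022139) chr14:120275652-120431698 and Mbnl3 (ENSMUSG00000036109) chrX:51113494-51205990. The lengths deposited with the counts were 18717, 11993 and 8743 bases. Mbnl2 overlaps the non-coding genes Gm52122, Gm26679 and LOC115486414. Of these Gm26679 alone had a row in the table, with at most 84 counts in a library, and since it is not stated whether counting used strand, Mbnl2 values are uncertain by an amount that was not measured. No gene of the annotation overlaps Mbnl1 or Mbnl3. The values are those of whole genes, so the isoforms and exon choices of the family were not measured.

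Mbnl1 stood out within the family in the IPs. Its mRNA was scarce in every lysate and was the most abundant muscleblind RNA, per length, in the IPs of HA-Tnrc6a and Ago2 knockout cells. In untagged IPs Mbnl1 was at 4.38, 5.99 and 6.61 CPM in experiment 3 and at 12.5, 10.8 and 12.3 CPM in experiment 4, and in untagged inputs at 5.54, 5.89 and 5.36 CPM and at 12.5, 10.5 and 11.7 CPM. The ranges of untagged IPs and untagged inputs overlapped in each experiment. In HA-Tnrc6a inputs Mbnl1 was at 9.17, 7.29 and 7.82 CPM in experiment 3 and at 12.4, 11.8 and 11.1 CPM in experiment 4. In HA-Tnrc6a IPs it was at 223, 191 and 160 CPM in experiment 3 and at 243, 201 and 195 CPM in experiment 4. The lowest HA-Tnrc6a IP lay far above every input and every untagged IP, with no overlap.

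Mbnl1 was high in the IPs of both other tagged genotypes too. Ago2 knockout inputs held 6.04, 5.69 and 7.77 CPM of Mbnl1 in experiment 3 and 13.3, 13.2 and 12.1 CPM in experiment 4. The IPs of these cells held 140, 110 and 117 CPM in experiment 3 and 140, 134 and 147 CPM in experiment 4. They lay below all HA-Tnrc6a IPs of the same experiment. In cells labelled Upf1 knockout, Mbnl1 was at 2.79, 2.37 and 2.05 CPM in the inputs of experiment 3 and at 6.04, 6.46 and 5.48 CPM in those of experiment 4, below every other input of the same experiment. Their IPs held 66.3, 63.6 and 61.5 CPM in experiment 3, below the Ago2 knockout IPs, and 158, 127 and 123 CPM in experiment 4, where they overlapped the Ago2 knockout IPs.

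Mbnl2, which binds motifs much like those of Mbnl1 and is the main muscleblind protein of the brain, was per length the most abundant member in the lysates and differed less between IPs and inputs. In untagged cells it was at 19.1, 28.0 and 29.8 CPM in the inputs of experiment 3 and at 37.8, 39.5 and 37.9 CPM in those of experiment 4, and untagged IPs held 23.6, 28.3 and 30.7 CPM and 47.7, 49.2 and 47.3 CPM. HA-Tnrc6a inputs had 20.6, 29.0 and 24.2 CPM and then 28.2, 30.0 and 25.5 CPM. HA-Tnrc6a IPs had 61.1, 64.1 and 62.6 CPM and then 65.2, 56.7 and 60.6 CPM, above all HA-Tnrc6a inputs and all untagged IPs. The inputs of Ago2 knockout cells were at 18.9, 19.5 and 23.2 CPM and at 27.2, 26.6 and 26.2 CPM, and the IPs at 55.6, 44.6 and 58.9 CPM and at 49.0, 59.5 and 55.9 CPM. In experiment 4 these IPs overlapped those of HA-Tnrc6a cells. Cells labelled Upf1 knockout had the highest Mbnl2 of all genotypes in both fractions, with inputs at 36.2, 37.3 and 35.3 CPM and at 53.6, 49.2 and 53.4 CPM, and IPs at 67.3, 71.1 and 76.8 CPM and at 114, 105 and 103 CPM.

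Mbnl3, the X-linked member known mainly from muscle precursors and placenta, was at the low end of the table, with 14 to 342 counts in a library. In untagged cells it was at 1.52, 1.28 and 1.24 CPM in the inputs of experiment 3 and at 1.98, 1.77 and 2.34 CPM in those of experiment 4, and in the IPs at 1.21, 1.69 and 1.23 CPM and at 1.79, 1.81 and 1.49 CPM. HA-Tnrc6a inputs held 1.80, 1.47 and 2.59 CPM and 2.84, 2.30 and 1.86 CPM. HA-Tnrc6a IPs held 4.90, 5.65 and 5.38 CPM and 7.06, 6.26 and 5.11 CPM, with no overlap with their inputs or with untagged IPs. In Ago2 knockout cells the inputs were at 1.73, 2.76 and 1.98 CPM and at 3.09, 3.40 and 2.41 CPM, and the IPs at 1.83, 3.66 and 2.50 CPM and at 4.04, 5.39 and 5.17 CPM. The input and IP ranges of Ago2 knockout cells overlapped in experiment 3 and were apart in experiment 4. Cells labelled Upf1 knockout had 0.805, 1.14 and 1.13 CPM and 1.58, 2.10 and 1.09 CPM in the inputs, and 2.77, 3.36 and 3.58 CPM and 3.84, 4.04 and 3.85 CPM in the IPs.

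**Figure D1:**
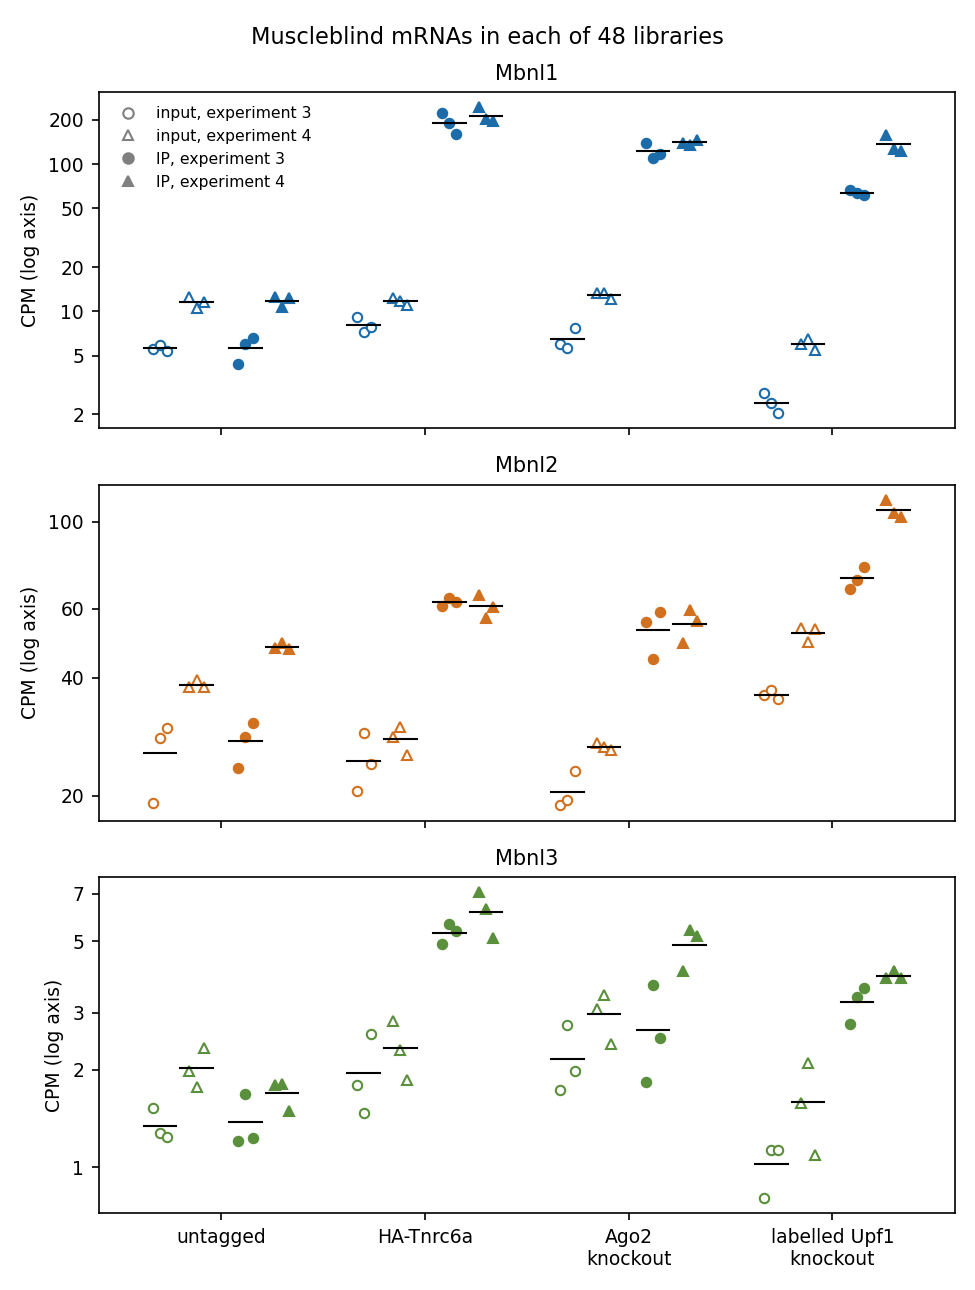
Level of each muscleblind mRNA in every library, as CPM on a log axis, by genotype; open symbols are inputs, filled symbols IPs, circles experiment 3, triangles experiment 4, and black bars the means of 3 libraries. The filled Mbnl1 symbols of the 3 tagged genotypes, at 61.5 CPM or more, stand apart from its inputs and untagged IPs, at 13.3 CPM or less.

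Levels of different genes were compared only per kilobase of the deposited length. On that scale, Mbnl1 made up a median of 19.3% of the family's summed CPM per kilobase in the 6 HA-Tnrc6a inputs (13.1% to 20.3%) and 65.6% in the 6 HA-Tnrc6a IPs (59.4% to 67.8%). Mbnl2 went the other way, from 73.1% (70.4% to 81.3%) to 30.3% (28.3% to 36.3%), and Mbnl3 from 8.13% to 4.10%. In untagged cells the make-up was nearly the same in both fractions, with Mbnl1 at 14.1% of the inputs and 11.7% of the IPs. Mbnl1 in Ago2 knockout cells had 18.5% of the inputs and 59.3% of the IPs. In cells labelled Upf1 knockout it had 5.29% of the inputs (3.45% to 7.36%) and 39.8% of the IPs (32.5% to 46.0%). Per length, Mbnl2 stayed the leading member there, with 57.1% of the IPs. In experiment 4 that order rests on the deposited lengths. By CPM, those IPs held more Mbnl1 (158, 127 and 123) than Mbnl2 (114, 105 and 103). These shares are descriptions, and a share of the family falls for one member when another rises.

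**Figure D2:**
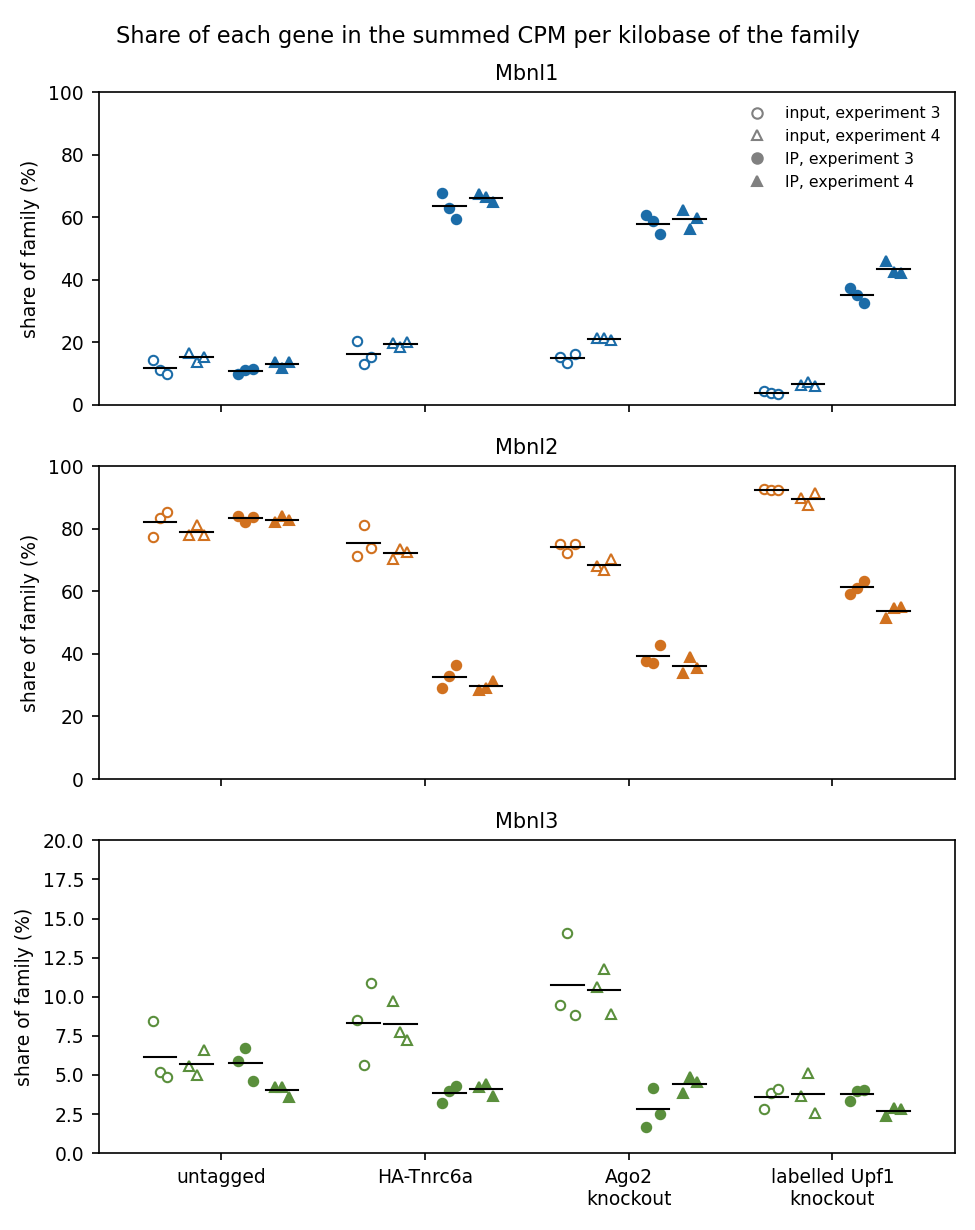
Share of each gene in the family's summed CPM per kilobase, in percent, for every library; open symbols are inputs, filled symbols IPs, circles experiment 3, triangles experiment 4, and black bars the means of 3 libraries. Mbnl1 and Mbnl2 trade places between inputs and IPs of HA-Tnrc6a and Ago2 knockout cells, and not in untagged cells; the Mbnl3 panel has a shorter axis.

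Enrichment was tested as the log2 ratio of IP to input in tagged cells less that in untagged cells, averaged over both experiments, with edgeR's quasi-likelihood test and Benjamini-Hochberg adjustment over all genes. All 3 members were called (adjusted p under 0.05) in HA-Tnrc6a cells, and all were higher. Of the 19993 genes tested, 62% were called in either direction and 29.8% were called higher. Being called is thus common in this comparison, and the members differed mainly in size. Mbnl1 had a log2 fold change of 4.36 ± 0.13 (SE, edgeR adjusted p = 4.29e-24), a 20.5-fold enrichment that placed it 85th from the top of all genes tested. Mbnl3 was enriched by 1.53 ± 0.23 (edgeR adjusted p = 4.59e-07) and Mbnl2 by 1.04 ± 0.11 (edgeR adjusted p = 1.21e-09), while the median of all genes was -0.10. Within the experiments the log2 values were 4.55 and 4.17 for Mbnl1, 1.24 and 0.84 for Mbnl2, and 1.37 and 1.69 for Mbnl3. The difference between the experiments passed for 0 of the 3 members by edgeR, also at an unadjusted p under 0.05, against 0.365% of all genes.

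The log2 ratio of IP to input in untagged cells, which is the background of the beads, was 0.02 ± 0.10 for Mbnl1, 0.20 ± 0.09 for Mbnl2 and -0.11 ± 0.18 for Mbnl3. None of the 3 was called by edgeR or by DESeq2, where edgeR called 35.7% of all genes, and 1 of the 3, Mbnl2, had an unadjusted edgeR p under 0.05. Mbnl2 did pass by edgeR without replicate 3 of the untagged inputs of experiment 3 (0.26) and without replicate 1 of the untagged IPs of experiment 3 (0.25). It also passed in experiment 4 alone (0.34), with all 48 libraries in the fit (0.21), and with the replicate number or the lysate as a block (0.21 each, edgeR adjusted p = 0.00302 and 0.00301). The enrichment values above are net of this background.

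Both other tagged genotypes were compared with the same untagged libraries, so these 3 comparisons share their controls. In Ago2 knockout cells all 3 members were called and higher, against 64.7% of all genes called by edgeR (31.5% higher). Mbnl1 was enriched by 3.83 ± 0.12 on the log2 scale, Mbnl2 by 1.01 ± 0.11 and Mbnl3 by 0.62 ± 0.25, with edgeR adjusted p values of 3.61e-26, 1.56e-09 and 0.0269. The Mbnl3 call was fragile. It was lost with library totals as the scaling (0.47, edgeR adjusted p = 0.0974), in experiment 3 alone (0.28, edgeR adjusted p = 0.628) and on leaving out any of 7 of the 24 libraries. These were, in experiment 3, replicate 1 of the untagged inputs (0.57), of the Ago2 knockout inputs (0.55) and of the untagged IPs (0.54), replicate 3 of the untagged IPs (0.55) and replicate 2 of the Ago2 knockout IPs (0.49), and, in experiment 4, replicate 3 of the untagged inputs (0.56) and of the Ago2 knockout inputs (0.55).

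In cells labelled Upf1 knockout all 3 members were again called and higher, against 63.6% of all genes called by edgeR (31.8% higher). Mbnl1 reached its largest enrichment there, 4.67 ± 0.12 on the log2 scale or 25.4-fold (edgeR adjusted p = 2.92e-27), from the lowest inputs of each experiment. Mbnl2 was enriched by 0.88 ± 0.10 and Mbnl3 by 1.67 ± 0.24, with edgeR adjusted p values of 7.03e-10 and 2.44e-07.

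**Figure D3:**
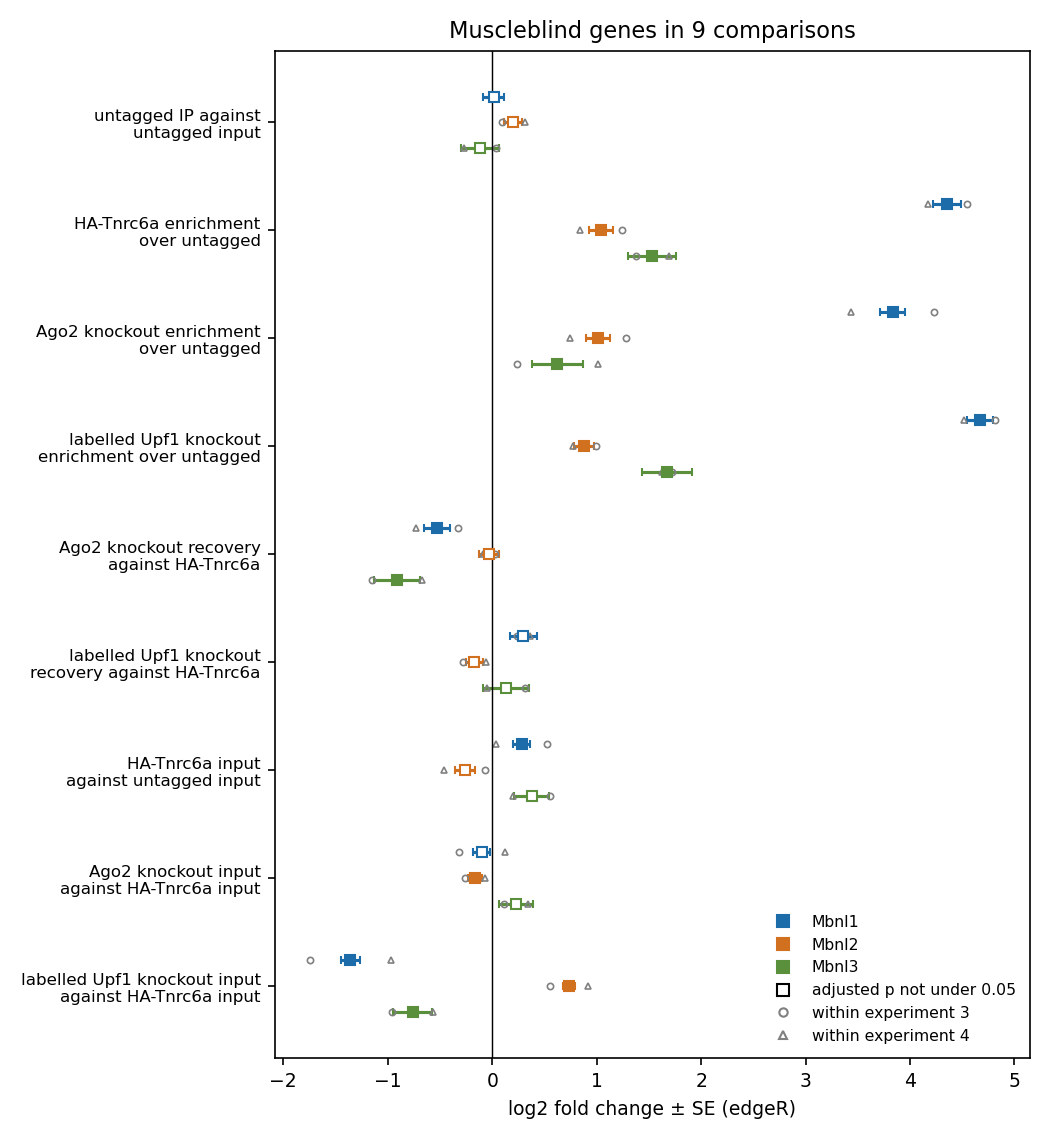
Log2 fold changes of the 3 genes in 9 comparisons (squares, with SE bars from edgeR; filled where the adjusted p was under 0.05), with the values within experiment 3 (grey circles) and experiment 4 (grey triangles). Mbnl1 lies between 3.83 and 4.67 in the 3 enrichments over untagged cells, and Mbnl2 and Mbnl3 between 0.62 and 1.67.

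Whether the paralogs differed was tested directly on 1 value per lysate, with the IP and input of the same number taken as one lysate, which the labels do not state. The value was the log2 ratio of IP to input of one gene less that of another, with an exact two-sided permutation test of genotypes within experiments. There were 15 such tests and 400 labelings each, so that 0.005 was the smallest p possible, and adjusted p values are Benjamini-Hochberg over the 15. Mbnl1 exceeded Mbnl2 by 3.11 ± 0.24 in HA-Tnrc6a lysates (SD, n = 6, range 2.88 to 3.56) and by -0.20 ± 0.31 in untagged lysates (range -0.64 to 0.26), a difference of 3.32 (exact permutation p = 0.005, adjusted 0.00833). Against untagged cells this difference was 2.84 for the Ago2 knockout and 3.78 for the label Upf1 knockout, each with an exact permutation p of 0.005. Mbnl1 likewise exceeded Mbnl3 by 2.82, 3.22 and 3.01 more than in untagged cells in the HA-Tnrc6a, Ago2 knockout and labelled Upf1 knockout lysates (exact permutation p = 0.005 each, adjusted 0.00833). In all 6 of these contrasts the lysates of the genotypes did not overlap.

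Mbnl2 and Mbnl3 differed less from each other, and in HA-Tnrc6a cells the test depended on how inputs were used. The log2 ratio of Mbnl2 less that of Mbnl3 was -0.17 ± 0.40 there and 0.33 ± 0.46 in untagged cells (SD, n = 6 each, exact permutation p = 0.09, adjusted 0.123). With the mean input of the group in place of the input of the same number, that difference of -0.50 passed (exact permutation, adjusted p = 0.0273). Ago2 knockout cells had 0.71 ± 0.51 (exact permutation p = 0.23, adjusted 0.255). In cells labelled Upf1 knockout Mbnl3 gained on Mbnl2, with a difference of -0.77 from untagged cells (exact permutation p = 0.005, adjusted 0.00833).

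Recovery was tested as the log2 ratio of IP to input in cells with the label Ago2-/- or Upf1-/- less that in HA-Tnrc6a cells, and both comparisons share the HA-Tnrc6a libraries. In Ago2 knockout cells 2 of the 3 members were called, both lower, against 21.3% of all genes called by edgeR (12.3% lower). Mbnl1 recovery fell by 0.53 ± 0.12 on the log2 scale (SE, edgeR adjusted p = 0.00161) and Mbnl3 recovery fell by 0.91 ± 0.22 (edgeR adjusted p = 0.00241). Mbnl2 differed by -0.03 ± 0.10, with an approximate 95% interval of -0.22 to 0.16 (edgeR adjusted p = 0.873). Mbnl1 was at -0.33 within experiment 3 and at -0.73 within experiment 4, and Mbnl3 at -1.15 and -0.67. Each call was lost in one of the experiments alone, Mbnl1 in experiment 3 (-0.35, edgeR adjusted p = 0.330) and Mbnl3 in experiment 4 (-0.66, edgeR adjusted p = 0.0606), while the difference between the experiments passed for 0 of the 3 members by edgeR, also unadjusted, against 0.195% of all genes.

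The paralogs differed from each other in this response to the Ago2 knockout. Mbnl1 less Mbnl2 was 0.48 lower in Ago2 knockout than in HA-Tnrc6a lysates on the log2 scale, at 2.63 ± 0.33 against 3.11 ± 0.24 (SD, n = 6 each, exact permutation p = 0.02, adjusted 0.03), with overlapping ranges. That adjusted p rose to 0.06 without replicate 2 of HA-Tnrc6a in experiment 3 (a difference of -0.38) or without replicate 3 of Ago2 knockout in experiment 3 (-0.40). Mbnl2 less Mbnl3 was 0.88 higher, at 0.71 ± 0.51 against -0.17 ± 0.40 (SD, n = 6 each, exact permutation p = 0.005, adjusted 0.00833). Mbnl1 and Mbnl3 did not differ past the threshold, with 0.40 for Mbnl1 less Mbnl3 (exact permutation p = 0.1, adjusted 0.125). That value was 0.86 within experiment 3 and -0.049 within experiment 4.

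In cells labelled Upf1 knockout, 0 of the 3 members were called for recovery by edgeR, against 4.49% of all genes, and 0 by DESeq2, which gave Mbnl1 and Mbnl2 an adjusted p. At an unadjusted edgeR p under 0.05 there were 2, Mbnl1 at 0.30 ± 0.12 (edgeR adjusted p = 0.198) and Mbnl2 at -0.17 ± 0.08 (edgeR adjusted p = 0.270). Mbnl3 was at 0.13 ± 0.22. Mbnl1 passed with the replicate number as a block (0.31, edgeR adjusted p = 0.0416) and did not with the lysate as a block (0.30, edgeR adjusted p = 0.0578). The difference between the experiments passed for 0 of the 3 by edgeR, also unadjusted, against 0.115% of all genes. The direct test between paralogs did pass: Mbnl1 less Mbnl2 was 0.47 higher in lysates labelled Upf1 knockout than in HA-Tnrc6a lysates, at 3.58 ± 0.21 against 3.11 ± 0.24 (SD, n = 6 each, exact permutation p = 0.005, adjusted 0.00833). Mbnl1 less Mbnl3 differed by 0.20 and Mbnl2 less Mbnl3 by -0.27 (exact permutation p = 0.245 and 0.255, both adjusted 0.255).

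These recoveries are relative to each genotype's own input, and the IP levels alone read otherwise. With IPs compared without inputs, Mbnl1 in cells labelled Upf1 knockout fell by 1.10 ± 0.08 on the log2 scale against HA-Tnrc6a cells (edgeR adjusted p = 6.07e-10). Mbnl2 rose by 0.52 ± 0.06 (edgeR adjusted p = 1.97e-07) and Mbnl3 fell by 0.67 ± 0.12 (edgeR adjusted p = 7.31e-05) in that comparison of IPs. Set directly against cells labelled Upf1 knockout, recovery in Ago2 knockout cells fell by 0.81 ± 0.11 for Mbnl1 and by 1.03 ± 0.24 for Mbnl3, with edgeR adjusted p values of 3.84e-07 and 0.000973. Mbnl2 was at 0.16 ± 0.08 (edgeR adjusted p = 0.165). These 2 of 3 called members stood against 24.4% of all genes called by edgeR. Mbnl2 passed without replicate 3 of the Ago2 knockout inputs (0.25), without replicate 2 of the Ago2 knockout IPs (0.25) or without replicate 3 of the IPs labelled Upf1 knockout (0.23), all of experiment 3, or without replicate 1 of the IPs labelled Upf1 knockout in experiment 4 (0.22).

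**Figure D4:**
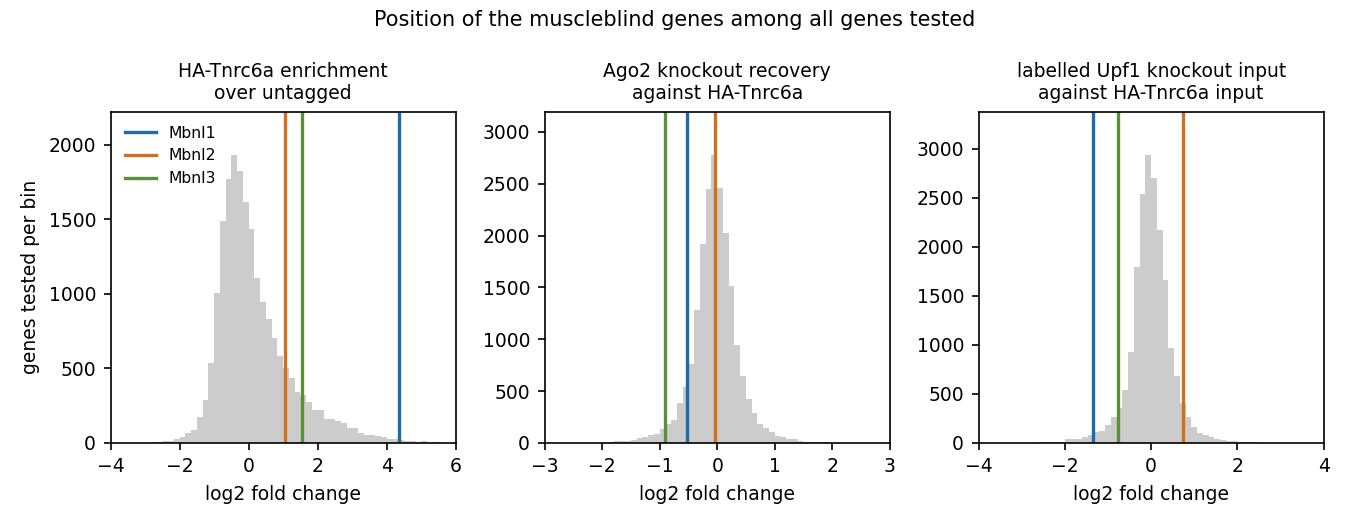
Number of genes tested per bin of log2 fold change in 3 comparisons, with vertical lines at the 3 muscleblind genes; 13, 9 and 5 genes lie outside the axes. Mbnl1 is in the far right tail for HA-Tnrc6a enrichment at 4.36, and on the left at -1.36 in the inputs labelled Upf1 knockout, where Mbnl2 is on the right at 0.74.

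The lysates themselves differed most in cells labelled Upf1 knockout. Against HA-Tnrc6a inputs all 3 members were called, where 58.6% of all genes were called by edgeR. Mbnl1 fell by 1.36 ± 0.09 on the log2 scale (SE, edgeR adjusted p = 1.92e-17), 2.56-fold, and Mbnl3 fell by 0.76 ± 0.19 (edgeR adjusted p = 0.000493). Mbnl2 rose by 0.74 ± 0.05 (edgeR adjusted p = 1.04e-12), 1.67-fold. Mbnl1 ranked 19153rd from the top of 19444 genes and Mbnl2 953rd. In bulk lysates, fewer cells with an RNA and less of that RNA per cell cannot be told apart.

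The size of this input difference depended on the experiment for 2 of the 3 members, against 11.6% of all genes by edgeR. Mbnl1 was at -1.75 within experiment 3 and at -0.97 within experiment 4, and Mbnl2 at 0.55 and 0.92. The directions were the same in both experiments. Markers of other cell types were called in part in inputs labelled Upf1 knockout against HA-Tnrc6a inputs, where edgeR called 58.6% of all genes. Called were 1 of 3 neural (lower), 1 of 4 mesoderm (higher) and 3 of 5 primitive endoderm markers (1 higher, 2 lower). Of the trophoblast markers 1 of 2 was called (higher), and of the fibroblast markers 2 of 3 (1 higher, 1 lower). The 3 neural markers in the table (Pax6, Sox1 and Tubb3, with Neurog2 not analysed here) summed to 47.5 to 64.4 CPM in inputs labelled Upf1 knockout and to 76.8 to 85.1 CPM in HA-Tnrc6a inputs, and the 4 mesoderm and primitive streak markers (T, Mixl1, Eomes and Mesp1) to 8.69 to 16.7 CPM and 6.47 to 7.78 CPM. The 5 primitive endoderm markers (Gata4, Gata6, Sox17, Dab2 and Pdgfra) summed to 12.6 to 59.5 CPM and 34.7 to 38.8 CPM. Trophoblast (Tfap2c and Krt8) and fibroblast (Col1a1, Col1a2 and Thy1) sums ranged over 59.3 to 90.5 and 27.1 to 36.7 CPM, against 54.9 to 82.7 and 28.2 to 35.2 CPM, and Cdx2, Elf5 and Postn of those lists were not analysed here. No marker that had a row was at 0 in all inputs. The part of these cells in the muscleblind values was not tested.

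Averaged over both experiments, the muscleblind mRNAs in Ago2 knockout inputs stayed close to those of HA-Tnrc6a inputs. Mbnl2 alone was called, lower, at -0.16 ± 0.06 (edgeR adjusted p = 0.0456), which is 1 of 3 against 30.9% of all genes by edgeR. The call was lost with RLE size factors (edgeR adjusted p = 0.0534), by DESeq2 (adjusted p = 0.0577), with all 48 libraries in the fit, in either experiment alone, and without any of 9 of the 12 libraries. The 9 were, in experiment 3, replicates 2 (-0.10) and 3 (-0.16) of HA-Tnrc6a and 1 (-0.13) and 2 (-0.15) of Ago2 knockout, and, in experiment 4, replicates 1 (-0.16) and 2 (-0.14) of HA-Tnrc6a and 1 (-0.17), 2 (-0.16) and 3 (-0.16) of Ago2 knockout. Mbnl1 was at -0.10 ± 0.08 (approximate 95% interval -0.26 to 0.06) and Mbnl3 at 0.23 ± 0.16 (-0.09 to 0.54). The difference between the experiments was called for 0 of 3 by edgeR, against 5.94% of all genes, and 1, Mbnl1, had an unadjusted p under 0.05. Mbnl1 was at -0.32 within experiment 3 and at 0.12 within experiment 4. Primitive endoderm markers summed to 7.35 to 9.25 CPM in these inputs, neural markers to 102 to 110 CPM and mesoderm markers to 4.96 to 7.23 CPM. Trophoblast markers summed to 72.7 to 116 CPM and fibroblast markers to 20.5 to 29.5 CPM. EdgeR called 5 of 5 primitive endoderm markers lower than in HA-Tnrc6a inputs, 3 of 3 neural markers higher and 0 of 3 mesoderm markers tested. It called 2 of 2 trophoblast (1 higher, 1 lower) and 3 of 3 fibroblast markers (lower), against 30.9% of all genes. The part of these cell types in the muscleblind values was not tested.

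HA-Tnrc6a inputs were set against untagged inputs, a comparison in which the tag and the clone cannot be told apart. Here 1 of 3 members was called, against 15.4% of all genes by edgeR: Mbnl1 was higher by 0.28 ± 0.08 (edgeR adjusted p = 0.0166), with 0.53 within experiment 3 and 0.03 within experiment 4. The Mbnl1 call was lost in experiment 4 alone (0.04), with all 48 libraries in the fit (edgeR adjusted p = 0.0554), without replicate 1 of HA-Tnrc6a in experiment 3 (0.23) and without replicate 2 of untagged in experiment 4 (0.25). Mbnl2 was at -0.26 ± 0.10 (edgeR adjusted p = 0.0811) and passed without replicate 1 of untagged in experiment 3 (-0.35) or replicate 2 of HA-Tnrc6a in experiment 3 (-0.33), in experiment 4 alone (-0.46), with all 48 libraries in the fit (-0.26) and with the replicate number as a block (-0.26). Mbnl3 was at 0.38 ± 0.17 (edgeR adjusted p = 0.139). Set against each other, Ago2 knockout inputs less inputs labelled Upf1 knockout gave 1.26 ± 0.10 for Mbnl1, -0.90 ± 0.05 for Mbnl2 and 1.00 ± 0.18 for Mbnl3, with edgeR adjusted p values of 2.09e-16, 1.24e-23 and 3.47e-06. That is 3 of 3 members, against 62.3% of all genes.

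The order of the genotypes by mean level can be read from the same values. Mbnl1 in IPs ran from HA-Tnrc6a through Ago2 knockout and the label Upf1 knockout to untagged cells in both experiments, and the only neighbours that overlapped were Ago2 knockout and the label Upf1 knockout in experiment 4. Mbnl1 in inputs was lowest under the label Upf1 knockout, with no overlap, and the neighbours among the other genotypes overlapped. Mbnl2 in IPs ran from the label Upf1 knockout to HA-Tnrc6a, Ago2 knockout and untagged cells, with no overlap in experiment 3, while the last 3 overlapped with their neighbours in experiment 4. Mbnl2 in inputs ran from the label Upf1 knockout to untagged, HA-Tnrc6a and Ago2 knockout cells. There, HA-Tnrc6a and Ago2 knockout overlapped in both experiments, and untagged and HA-Tnrc6a in experiment 3. Mbnl3 in inputs ran from Ago2 knockout to HA-Tnrc6a, untagged and the label Upf1 knockout, and neighbours overlapped except for the last pair in experiment 3. Mbnl3 in IPs was highest in HA-Tnrc6a and lowest in untagged cells, and Ago2 knockout and the label Upf1 knockout changed places between the experiments.

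Other regulators of alternative splicing give the setting for these values. The list held 33 genes of the CELF, RBFOX, PTB, ESRP, NOVA, KHDRBS, ELAV, MSI and related families, 32 of which were tested for HA-Tnrc6a enrichment. Of these 21 were called by edgeR, a share near the 62% of all genes called. They were 16 higher and 5 lower, where 29.8% of all genes were called higher and 32.2% lower. The median log2 fold change was 0.27 against -0.10 for all genes. Elavl2, a neuronal RNA-binding protein, was enriched by 3.23 ± 0.11, the neuronal regulator Nova2 by 1.64 ± 0.11, the epithelial regulator Esrp1 by 1.51 ± 0.13 and Celf1, which often opposes muscleblind proteins at the same exons, by 1.45 ± 0.08. Mbnl1, at 4.36, was above each of the 32. In Ago2 knockout cells 19 were called (15 higher, 4 lower, median 0.31, against 64.7% of all genes called). Elavl2 led at 3.42, with Srrm4 at 1.92, Rbm24 at 1.52 and Esrp1 at 1.33. Rbm24 was scarce, with an average log2 CPM of -0.07 and an SE of 0.43. Cells labelled Upf1 knockout had 21 called (17 higher, 4 lower, median 0.42, against 63.6%), led by Elavl2 at 3.26, Nova2 at 1.91, Esrp1 at 1.66 and Nova1 at 1.63. Untagged IPs against inputs gave 10 of 32 called, 5 in each direction, against 35.7% of all genes, with Khdrbs2 at 1.77, Nova2 at -0.71, Celf4 at 0.43 and Ptbp3 at -0.42. Khdrbs2 was scarce too, with an average log2 CPM of -0.65 and an SE of 0.36.

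Recovery of the splicing regulators in Ago2 knockout against HA-Tnrc6a cells was called by edgeR for 7 of 31, 2 higher and 5 lower, a share near the 21.3% of all genes (median -0.07, all genes -0.04). Celf4 was higher by 0.54 ± 0.14, and Celf2, Nova2 and Celf1 fell by 0.54 ± 0.13, 0.50 ± 0.11 and 0.43 ± 0.06. Cells labelled Upf1 knockout gave 0 of 32 by edgeR, against 4.49% of all genes, with 6 at an unadjusted p under 0.05, and 0 by DESeq2 of the 25 to which it gave an adjusted p (median 0.06, all genes 0.02). Ago2 knockout against the label Upf1 knockout had 8 of 31 called, 2 higher and 6 lower, against 24.4% of all genes, with Nova2 at -0.74, Celf2 at -0.55, Nova1 at -0.54 and Celf4 at 0.52. In inputs labelled Upf1 knockout against HA-Tnrc6a 24 of 30 were called, 10 higher and 14 lower, against 58.6% of all genes, where Esrp1 fell by 2.62 ± 0.11, Celf2 by 0.89 ± 0.10 and Ptbp2 by 0.83 ± 0.06, and Elavl3 rose by 0.99 ± 0.09. In Ago2 knockout inputs 12 of 31 were called, 4 higher and 8 lower, against 30.9% of all genes, where Esrp1 fell by 1.10 ± 0.09, Celf4 by 0.66 ± 0.08 and Celf5 by 0.38 ± 0.05, and Ptbp2 rose by 0.58 ± 0.04. In HA-Tnrc6a against untagged inputs 7 of 31 were called, all lower, against 15.4% of all genes, with Elavl3 at -0.69, Nova2 at -0.39, Msi1 at -0.35 and Celf5 at -0.33. Inputs of Ago2 knockout against the label Upf1 knockout had 25 of 30 called, 13 higher and 12 lower, against 62.3% of all genes, with Esrp1 at 1.53, Celf6 at -1.49, Ptbp2 at 1.42 and Elavl3 at -1.23. Celf6 was scarce, with an average log2 CPM of -0.68 and an SE of 0.36. It was at -2.29 within experiment 3 and at -0.69 within experiment 4.

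Trim71 and 4 mRNAs known as its targets in mammalian cells were read beside Mbnl1. All 5 of 5 were called and higher for HA-Tnrc6a enrichment, where 62% of all genes were called in either direction and 29.8% higher. Cdkn1a, which encodes the cell cycle inhibitor p21, was at 5.80 ± 0.11. The retinoblastoma relatives Rbl2 and Rbl1 were at 5.08 ± 0.13 and 2.08 ± 0.11, and Trim71 itself at 2.17 ± 0.09. Mbnl1 lay between Rbl2 and Trim71. The medians of the 5 were 2.17 for HA-Tnrc6a, 2.22 for the Ago2 knockout and 2.37 for the label Upf1 knockout. In each, 5 of 5 were called and higher, against 64.7% and 63.6% of all genes called in the last 2 (31.5% and 31.8% higher). Recovery in Ago2 knockout against HA-Tnrc6a cells was called for 2 of the 5, against 21.3% of all genes, namely Trim71, which fell by 0.48 ± 0.09, and Egr1, an early response transcription factor, which rose by 0.30 ± 0.08. In cells labelled Upf1 knockout 1 of 5 was called, Egr1 at 0.35 ± 0.10, against 4.49% of all genes. Ago2 knockout against the label Upf1 knockout had 1 of 5 called, Trim71 at -0.65, against 24.4%.

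In the inputs, 4 of the 5 were called and lower in cells labelled Upf1 knockout, against 58.6% of all genes called, where Egr1 fell by 2.01 ± 0.04, Rbl2 by 0.27 ± 0.07, Trim71 by 0.21 ± 0.02 and Rbl1 by 0.17 ± 0.04. In Ago2 knockout inputs 4 of 5 were called, against 30.9% of all genes, Egr1 at 0.24 and Cdkn1a at 0.17 higher, and Rbl2 at -0.18 and Trim71 at -0.11 lower. In HA-Tnrc6a against untagged inputs 3 of 5 were called, against 15.4% of all genes, Egr1 at 0.60, Cdkn1a at -0.30 and Trim71 at 0.10. Inputs of Ago2 knockout against the label Upf1 knockout had 4 of 5 called, all higher, against 62.3% of all genes, with Egr1 at 2.26, Cdkn1a at 0.25, Rbl1 at 0.10 and Trim71 at 0.10. Untagged IPs had less Trim71 (-0.50) and less Cdkn1a (-0.32) than untagged inputs, 2 of 5 called against 35.7% of all genes.

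The genes whose pattern was most like each member were found by Pearson's r over the 16 group means of log2 CPM, each centred on the 4 groups of its experiment and fraction, among 10839 genes with an average log2 CPM of at least 3 (10840 for Mbnl3). The points share their libraries, and r is a description. For Mbnl1 they were Tmem267 (0.993), Pogk (0.990) and AW146154 (0.980). For Mbnl2 they were Smim14 (0.969), Klhl12 (0.967) and Fhip2b (0.959), and for Mbnl3 they were Sh3gl2 (0.973), Net1 (0.962) and G3bp2 (0.954). Within the family r was 0.906 for Mbnl1 and Mbnl3, 0.411 for Mbnl1 and Mbnl2 and 0.188 for Mbnl2 and Mbnl3.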

How the data were processed

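RNA from 48 libraries of mouse embryonic stem cells was measured by RIP-seq. The authors deposited 1 table of raw counts per gene and library, with 20171 genes, each reaching at least 11 counts in some library. The table also holds a signal per library that the authors headed RPKM, which is the deposited count over 1 constant for each library, with no part for gene length (the ratio varied by at most 3.3e-06 percent between genes), and it served as the alternative called the authors' scaling. Reads were handled with bcl2fastq 2.20 and STAR 2.7.3a on GRCm38 (mm10), per the submitters' processing notes. Aligner settings, annotation and the strand setting of the counting are not given in the sources used here. Genotype and fraction came from the column names. Columns numbered 1 to 3 were taken as experiment 3 and columns 4 to 6 as experiment 4 from the order of the labels, so this mapping is inferred. No column of another sample was found. Dishes were grown in triplicate per the labels, and where these are not separate cultures, p-values measure only the spread between these libraries.

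Counts were tested with edgeR 4.0.16 (limma 3.58.1, R 4.3.3) by the two-sided quasi-likelihood F-test, with TMM scaling, filterByExpr at a minimum count of 10 and 1 coefficient per group, fitted on the groups being compared alone. Contrasts were averaged over both experiments with equal weight, and a gene was called where its p, adjusted by Benjamini-Hochberg over all genes tested, was under 0.05. All 3 members passed the filter in all comparisons. CPM values use TMM over all 48 libraries, log2 CPM a prior count of 2. Replicate libraries were compared by a chi-square per degree of freedom, which was 1.96 to 36.2 over 48 pairs, so no pair differed by counting error alone. Whether libraries share a culture or a lysate cannot be told from this. Library totals of 11471544 to 73845953 set the counting error, and without molecular identifiers a read is not an independent molecule. Alternatives were RLE size factors, library totals, the authors' scaling, no filter, all 48 libraries in one fit, a replicate block by number or by lysate, each experiment alone, IPs without inputs, DESeq2 1.42.0, and leaving out each library.

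The members and the lists (33 splicing regulators, Trim71 with 4 targets, and markers of pluripotent, primitive endoderm, mesoderm, neural, trophoblast and fibroblast cells) were chosen with earlier results of these data known. Named genes were the members, the genes that check the labels, the 3 genes most like each member, and up to 4 called genes per list and comparison with the largest change.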

Additional observations from a re-analysis of the deposited data

Results flagged for a closer look

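The difference between inputs labelled Upf1 knockout and HA-Tnrc6a inputs was not the same in both experiments for 2 members, by a test of the difference itself. For Mbnl1, experiment 4 less experiment 3 was 0.78 ± 0.19 on the log2 scale (SE, edgeR quasi-likelihood adjusted p = 0.0033), from -1.75 to -0.97. For Mbnl2 it was 0.37 ± 0.11 (edgeR adjusted p = 0.025), from 0.55 to 0.92. Each gene kept its direction in both experiments, and both differences passed with RLE size factors (0.77 and 0.36) and with a replicate block (0.79 and 0.36). Mbnl3, at 0.40 ± 0.38, did not pass.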

How the results depend on the processing

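The labels do not say that a replicate number marks a shared lysate or day, and the deviations of same-numbered libraries did not all correlate (mean r 0.068 over 168 pairs, -0.29 to 0.67, and 0.10 over the 24 pairs of IP and input), so the libraries were taken as sharing only a number. As a hint from the data that numbers may mark more than that, 37 of 48 libraries correlated best on average with their own number out of 3. With the replicate block, Mbnl1 recovery in cells labelled Upf1 knockout passed (0.31, adjusted p = 0.0416), as did Mbnl2 in HA-Tnrc6a against untagged inputs (-0.26) and Mbnl2 in untagged IPs against inputs (0.21, and 0.21 with the replicate block by lysate). It changed no other call. The 6 enrichments of Mbnl1 and Mbnl2 over untagged cells and the 3 input differences of the label Upf1 knockout kept direction and call in all alternatives run. In experiment 3 alone the values were 0.28 for Mbnl3 enrichment in Ago2 knockout, -0.35 and 0.0067 for Mbnl1 and Mbnl2 recovery in Ago2 knockout, -0.47 and 0.41 for Mbnl1 and Mbnl2 between Ago2 and label Upf1 knockout, -0.26 for Mbnl2 in Ago2 knockout inputs and 0.038 for Mbnl3 in untagged IPs. In experiment 4 alone they were -0.66 for Mbnl3 recovery in Ago2 knockout, -0.013 for Mbnl3 recovery in the label Upf1 knockout, -0.042 and -0.64 for Mbnl2 and Mbnl3 between Ago2 and label Upf1 knockout, 0.12 and -0.062 for Mbnl1 and Mbnl2 in Ago2 knockout inputs, 0.036 and -0.46 for Mbnl1 and Mbnl2 in HA-Tnrc6a against untagged inputs and 0.34 for Mbnl2 in untagged IPs. Library totals gave 0.47 for Mbnl3 enrichment in Ago2 knockout, 0.24 for Mbnl2 between Ago2 and label Upf1 knockout and -0.15 for Mbnl1 in untagged IPs. All 48 libraries in one fit gave -0.16 for Mbnl2 in Ago2 knockout inputs, 0.28 and -0.26 for Mbnl1 and Mbnl2 in HA-Tnrc6a inputs and 0.21 for Mbnl2 in untagged IPs, with 3902 genes called in place of 6065 in Ago2 knockout inputs and 1937 in place of 2990 in HA-Tnrc6a inputs. RLE size factors and DESeq2 each gave -0.16 for Mbnl2 in Ago2 knockout inputs. IPs without inputs gave -1.10, 0.52 and -0.67 for Mbnl1, Mbnl2 and Mbnl3 in the label Upf1 knockout against HA-Tnrc6a, and 0.47, -0.72 and -0.015 in Ago2 knockout against the label Upf1 knockout, because the inputs differ. Beyond that the cause of these changes was not tested.

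Leaving out 1 library at a time, Mbnl3 enrichment in Ago2 knockout was 0.49 to 0.73, Mbnl2 recovery in Ago2 knockout -0.083 to 0.027, Mbnl3 recovery in the label Upf1 knockout -0.054 to 0.26, Mbnl2 between Ago2 and label Upf1 knockout 0.12 to 0.25, Mbnl2 in Ago2 knockout inputs -0.22 to -0.10, Mbnl1 and Mbnl2 in HA-Tnrc6a inputs 0.23 to 0.31 and -0.35 to -0.21, and Mbnl1 and Mbnl2 in untagged IPs -0.043 to 0.093 and 0.12 to 0.26. The genes called for recovery in the label Upf1 knockout (896 in all) were 591 to 957, with 591, 594, 596 and 592 without HA-Tnrc6a input replicates 2 and 3 of experiment 3 and 2 and 3 of experiment 4.

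Tests between paralogs in 1 experiment alone could not pass, as 3 against 3 lysates give no exact p below 0.1, so only their values bear on stability. In experiments 3 and 4, Mbnl1 less Mbnl2 against untagged was 3.31 and 3.32 in HA-Tnrc6a, 2.98 and 2.69 in Ago2 knockout and 3.84 and 3.73 in the label Upf1 knockout. Against HA-Tnrc6a it was -0.33 and -0.63 in Ago2 knockout and 0.53 and 0.40 in the label Upf1 knockout. Mbnl1 less Mbnl3 against untagged was 3.13 and 2.51, 3.98 and 2.46, and 3.13 and 2.90. Against HA-Tnrc6a it was 0.86 and -0.049 in Ago2 knockout and -0.0020 and 0.39 in the label Upf1 knockout. Mbnl2 less Mbnl3 against untagged was -0.71 and -0.83 in the label Upf1 knockout and 1.00 and -0.24 in Ago2 knockout. It was 1.18 and 0.58 in Ago2 knockout against HA-Tnrc6a. In HA-Tnrc6a against untagged it passed with no replicate block, at -0.50. Leaving out a lysate moved Mbnl1 less Mbnl2 in Ago2 knockout against HA-Tnrc6a over -0.53 to -0.38. Mbnl3 had the fewest counts, 14 to 342 a library.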
